A study of Saccharomyces cerevisiae with 24 samples.

Results

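The sites described here are 21 nucleotides of the 25S rRNA of budding yeast (Saccharomyces cerevisiae) that carry a methyl group on the ribose 2′ oxygen, a modification written Nm, or Am, Cm, Gm and Um by base. They were chosen by position alone, as the known Nm sites between positions 2197 and 2959, counted from the 5′ end of the mature 25S. They are 21 of 3396 positions of 25S, and of 5475 positions in the 4 rRNAs of the deposited tables. The list of known modified positions holds 16 other Nm sites of 25S, and was compiled from general knowledge. By reference base the sites comprise 5 A, 4 C, 6 G and 6 U. Their stretch covers domains IV and V.

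Ribose methylation in yeast rRNA is placed mainly by box C/D small nucleolar RNAs (snoRNAs), which base-pair with the pre-rRNA and position the methyltransferase Nop1 on the paired nucleotide. Domains IV and V hold the subunit interface and the peptidyl transferase centre, and many modified nucleotides lie there. Um2921 and Gm2922 lie in the A loop, which pairs with the CCA end of the tRNA in the A site, and Gm2619 lies in the P loop, its counterpart for the P site. Of the sites, only Gm2922 has a protein methyltransferase without a guide, Spb1. From general knowledge, snR76 guides Cm2197, snR47 Am2220, snR13 both Am2280 and Am2281, snR75 Gm2288, snR64 Cm2337, snR65 Um2347, snR66 Um2417 and snR78 Um2421. Likewise snR67 guides Gm2619 and Um2724, snR68 Am2640, snR51 Um2729, snR48 both Gm2791 and Gm2793, snR38 Gm2815, snR52 Um2921, snR71 Am2946, snR69 Cm2948 and snR73 Cm2959.

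Native RNA was sequenced on nanopores, where the base caller's errors and the ionic current serve as readouts of modified nucleotides. The 24 libraries form 12 groups of 2, all from the BY4741 background grown in YPD medium at 30 °C. The strain groups are wild type (WT) and deletions of snR3, snR34 or snR36, each made by replacing the snoRNA sequence with a kanMX4 cassette. None of these snoRNAs guides one of the 21 sites. Whether each deletion strain is a single clone is not given in the sources used here. The fraction groups are fractions 1 to 4 (F1 to F4) of sucrose gradients of cycloheximide-treated wild-type cells. The peroxide groups are total RNA (input) and pooled fractions 3 and 4, each from untreated cells and from cells exposed to 1 mM hydrogen peroxide (H2O2) for 30 min. Total RNA came from a commercial kit and fraction RNA from polysome extracts, so that the RNA preparation differs between them. The labels describe the cultures as biological duplicates.

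Base-call errors were available for 20 libraries, with 1 library per strain and 2 in each other group, and current levels for the 8 strain libraries. All 420 pairs of site and library had at least 20 reads, with 89 to 24349 reads at a site. Median coverage per position ran from 67 to 14359 reads, and was at least 500 in 15 libraries. The 5 shallow ones were both F1 libraries, F3 replicate 2, F4 replicate 1 and replicate 2 of the peroxide-treated fractions 3 and 4. The snoRNAs have no rows of their own in these tables. At the 6 uridines that they guide, from general knowledge, mismatch frequencies were 17.8 to 68.7% in WT and 1.78 to 8.84% in the strain lacking the guide.

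The sequences around the sites that the results turn on most are shown because errors on both sides of the methylated nucleotide are described below. They are the reference bases of the deposited tables, 5′ to 3′, with T for U and with the methylated nucleotides in capitals.
Am2220, positions 2213 to 2227: aaagtgaAgaaattc
Am2280, Am2281 and Gm2288, positions 2273 to 2295: gtagccaAAtgcctcGtcatcta
Cm2337, positions 2330 to 2344: ccactgtCcctatct
Um2417 and Um2421, positions 2410 to 2428: ttgagctTgacTctagttt
Um2724 and Um2729, positions 2717 to 2736: tttgattTtcagTgtgaata
Gm2791 and Gm2793, positions 2784 to 2800: gaggctaGaGgtgccag
Um2921 and Gm2922, positions 2914 to 2929: gttggatTGttcaccc
Am2946 and Cm2948, positions 2939 to 2955: gaacgtgAgCtgggttt
Cm2959, positions 2952 to 2966: gtttagaCcgtcgtg
The next base was not shared by the sites. The nucleotide on the 3′ side was G at 8 sites, U at 6, A at 4 and C at 3.

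Methylated adenosines and uridines were miscalled far more often than methylated cytidines. Over the 20 libraries, the median mismatch frequency (share of reads with another base at the position) was 47.1% across the 5 Am sites and 25.8% across the 6 Um sites. It was 7.98% across the 6 Gm sites and 1.83% across the 4 Cm sites. Each base has its own error level, so every site was set beside unmodified positions of its base. These are the 2832 25S positions at least 6 from any known site, with median mismatch frequencies of 1.61% at A, 1.77% at C, 1.24% at G and 2.77% at U. All 5 Am sites, 5 of 6 Um sites and 3 of 6 Gm sites lay above the 95th percentile of their base, and none of the 4 Cm sites did. Sites also differed by their neighbours. The 11 with another known modified position within 3 had a median of 24.3%, and 8 lay above that percentile. The 10 without had 9.27%, and 5 lay above it. What base and neighbours each contribute was not tested. These are descriptions of positions, which are not replicates, and no test was made across them.

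Am2220 had the highest mismatch frequency, with a median of 84.3%. It was 85.8% in WT, 86.7% in the snR3 deletion, 85.4% in the snR34 deletion and 86.2% in the snR36 deletion. Replicates 1 and 2 of F1 gave 76.7% and 81.7%, those of F2 81.2% and 84.0%, those of F3 82.5% and 86.1%, and those of F4 85.5% and 83.7%. Input libraries of untreated cells gave 78.4% and 85.0%, and those of treated cells 80.6% and 85.0%. Pooled fractions 3 and 4 gave 79.1% and 84.7% without peroxide, and 80.0% and 87.4% with it. Not all groups overlapped: both F1 libraries, which are shallow, lay below both libraries of F3 and of F4. How many of all positions separate in this way was not computed. Replicate 2 lay above replicate 1 in 7 of the 8 groups with 2 libraries. Reads with a deletion were rare at Am2220, with a median of 0.673% against 2.15% at unmodified A.

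Um2417 and Um2921 came next, with medians of 80.1% (74.2 to 82.9% over the libraries) and 77.3% (67.8 to 81.2%). Am2946 had 50.8% (40.3 to 53.0%), Am2280 47.1% (42.0 to 49.0%) and Am2281 46.1% (36.1 to 50.7%). No library of these 6 sites, Am2220 included, came near the unmodified level. A middle range was formed by Um2724 with 28.9%, Gm2922 with 24.3%, Um2421 with 22.7%, Um2347 with 18.3% and Am2640 with 14.3%. Um2729 had 9.71%, Gm2793 8.99%, Gm2619 8.84% and Gm2288 7.11%.

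The remaining sites had mismatch frequencies of a few percent or less. Cm2948 had a median of 5.02% and Gm2815 of 3.63%, both above the median of their base in all 20 libraries, and Cm2959 had 2.80%, above it in 18. Cm2197 with 0.847%, Gm2791 with 0.783% and Cm2337 with 0.587% lay below the medians of their bases. Cm2197 and Cm2337 did so in all 20 libraries, whereas Gm2791 was above the G median in 4.

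Cm2337 had the lowest median of both mismatches and deletions. Its mismatch frequency was 0.988% in WT, 0.887% in the snR3 deletion, 0.937% in the snR34 deletion and 0.757% in the snR36 deletion. Replicates 1 and 2 of F1 gave 1.09% and 0%, those of F2 0.883% and 0.597%, those of F3 0.506% and 0.732%, and those of F4 0% and 0.458%. Input libraries of untreated cells gave 0.539% and 0.516%, and those of treated cells 0.440% and 0.426%. Pooled fractions 3 and 4 gave 0.923% and 0.430% without peroxide, and 0.580% and 0.593% with it. The libraries at 0% were shallow, and the upper Wilson 95% limits of those shares were 3.56% in F1 and 3.08% in F4, for counting error only. Its base quality had a median of 9.33, against 16.0 at unmodified C.

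Insertions were the leading error at 8 sites, mismatches at 9 and deletions at 4. The median insertion frequency over the sites was 13.7%, with 12 sites above the 95th percentile of their base. Unmodified positions had 2.93% at A, 3.54% at C, 3.18% at G and 4.89% at U. The highest medians were 55.3% at Am2946, 48.5% at Um2417, 29.2% at Um2729 and 25.3% at Gm2288. Um2921 had 21.0%, Gm2922 20.3%, Cm2948 16.9% and Um2347 16.0%.
Cm2959 had 14.5%, Am2220 14.1%, Am2281 13.7%, Gm2815 13.6%, Um2724 13.1% and Um2421 10.1%. The lower end was formed by Am2640 with 9.25%, Gm2793 with 8.46%, Gm2619 with 6.50%, Am2280 with 6.47%, Cm2197 with 6.06% and Cm2337 with 2.01%. Of the cytidines, Cm2948 and Cm2959 lay above the 95th percentile of unmodified C.

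Am2946 also had the widest range of insertions over libraries. It had 51.3% in WT, 53.0% in the snR3 deletion, 53.6% in the snR34 deletion and 55.3% in the snR36 deletion. Replicates 1 and 2 of F1 gave 50.4% and 55.3%, those of F2 51.6% and 64.5%, those of F3 57.1% and 61.2%, and those of F4 61.2% and 62.3%. Input libraries of untreated cells gave 58.5% and 55.2%, and those of treated cells 60.4% and 53.5%. Pooled fractions 3 and 4 gave 54.8% and 57.8% without peroxide, and 60.1% and 43.4% with it. The widest gaps lay between replicates of one group, F2 and treated fractions 3 and 4.

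Gm2791 had the lowest insertion frequency, below the unmodified G median in all 20 libraries and below the 5th percentile of unmodified G. It had 0.987% in WT, 1.12% in the snR3 deletion, 1.21% in the snR34 deletion and 1.19% in the snR36 deletion. Replicates 1 and 2 of F1 gave 3.48% and 1.48%, those of F2 1.15% and 0.839%, those of F3 1.32% and 0.813%, and those of F4 2.08% and 0.792%. Input libraries of untreated cells gave 0.751% and 0.873%, and those of treated cells 0.887% and 0.880%. Pooled fractions 3 and 4 gave 1.16% and 1.02% without peroxide, and 0.944% and 0.891% with it. The highest values came from the shallow libraries of F1 and F4.

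Deletions separated fewer sites. The median over the sites was 5.63%, and 3 sites lay above the 95th percentile of their base: Um2421 with 50.1%, Gm2922 with 42.8% and Am2281 with 21.8%. Am2281 is the last A of the run 2279 to 2281, and the values do not tell which A of it was missing. Um2347 had 22.2%, but unmodified uridines reach such values, and it lay at the 93.7th percentile of U. The remaining sites ran from 0.473% at Cm2337 to 17.3% at Um2921. Sites without a call above the 95th percentile in mismatches, insertions or deletions, and with a base quality above the 5th, were Cm2197, Cm2337 and Gm2791.

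Um2421 was the site read most often as missing. Its deletion frequency was 53.4% in WT, 52.3% in the snR3 deletion, 52.4% in the snR34 deletion and 52.3% in the snR36 deletion. Replicates 1 and 2 of F1 gave 46.7% and 41.9%, those of F2 49.7% and 49.8%, those of F3 49.6% and 52.0%, and those of F4 57.3% and 50.7%. Input libraries of untreated cells gave 52.4% and 49.5%, and those of treated cells 50.5% and 49.4%. Pooled fractions 3 and 4 gave 48.6% and 49.3% without peroxide, and 49.1% and 54.2% with it. Both F1 values were the lowest of the 20, from 2 shallow libraries. The share of all positions where this holds was not computed.

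Base quality, the base caller's own score of certainty, was low at most sites. Its median over the sites was 9.11, and 20 of 21 sites lay below the unmodified median of their base in all 20 libraries. The lowest medians were 5.82 at Um2921, 6.16 at Um2724, 6.37 at Gm2922, 6.61 at Um2347 and 6.72 at Am2281, against 16.4 at unmodified U, 20.9 at G and 19.8 at A. All 6 Um sites were below the 5th percentile of U. The exception was Cm2197, with 20.5 against 16.0 at unmodified C, and above it in all 20 libraries.

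**Figure D1:**
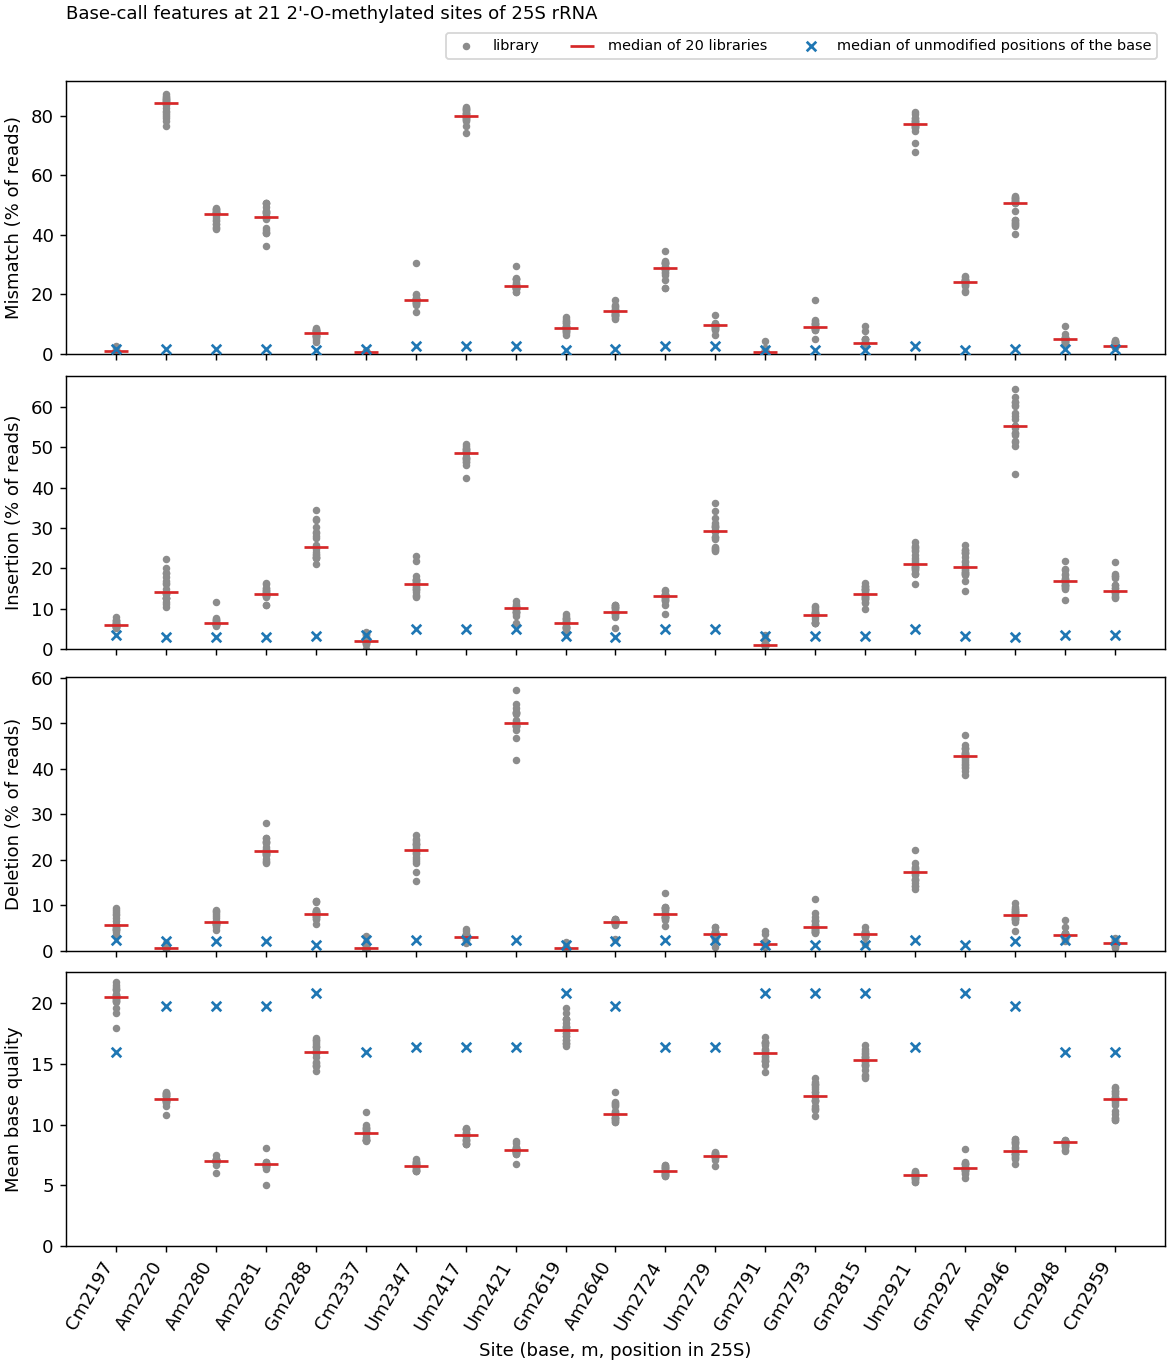
Mismatch, insertion and deletion frequency (% of reads) and mean base quality at each of the 21 sites. Grey points are the 20 libraries, red bars their median, and blue crosses the median of unmodified 25S positions of the same base. Am2220, Um2417 and Um2921 stand highest in mismatches, Am2946 and Um2417 in insertions, and Um2421 and Gm2922 in deletions.

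The values of the sites were correlated between libraries. Over the 190 pairs of libraries and 21 sites, Pearson's correlation of mismatch frequencies was 0.978 at the lowest and 0.996 at the median. For insertions it was 0.918 and 0.981, for deletions 0.955 and 0.994, and for base quality 0.967 and 0.989. Spearman's rank correlation was 0.949 at the lowest for mismatches, 0.864 for insertions, 0.857 for deletions and 0.917 for base quality. These correlations are descriptions across sites, which share each library, its depth and their base composition.

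The highest error of a window lay on the methylated nucleotide in few cases, as it does at unmodified centres. Within 3 positions on each side, the highest mismatch frequency fell on the site itself at 4 of 21 sites, the highest insertion frequency at 3 and the highest deletion frequency at 5, which is 19.0%, 14.3% and 23.8%. In windows centred on unmodified positions the maximum lay on the centre in 13.4%, 12.3% and 13.4%. Among these windows 18 reached a mismatch frequency of 20% somewhere, 15 an insertion frequency of 20% and 12 a deletion frequency of 20%. Windows of the same width centred on unmodified positions reached 20% in 4.71%, 3.79% and 24.1% of 2826 cases. Of the sites, 11 have another known modified position within 3, so the windows of neighbours share positions.

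Over the 21 sites, insertions peaked more often after the site than before it. The median insertion frequency over the sites was 7.22% at the nucleotide before the site, 13.7% at the site, 18.4% at the nucleotide after it, 17.3% at the next and 10.8% at the third. The peak lay on the 3′ side at 13 sites, on the 5′ side at 5 and at the site itself at 3. The 3′ peaks at 2282 and 2794 each count for a pair of neighbouring sites, and that of Cm2337 is at Ψ2340. At the 10 sites with no other known site in the window, the median was 6.66% just before the site, 13.4% at it, 18.9% just after it and 20.8% at the next. The insertion frequency was higher in the pair of positions after the site than in the pair before it at 14 of 21 sites and at 6 of these 10. The same holds for 49.1% of 2828 unmodified positions, and no test was made of these shares.

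Cm2959 was such a site. Its own insertion frequency was 14.5%, against 60.8% at position 2960 and 57.7% at 2961, and its mismatch frequency was 2.80%, against 11.4% at 2960. Am2640 had 9.25% insertions, against 39.7% at 2641 and 42.6% at 2642. Cm2197 had 6.06% insertions, against 34.1% at 2199 and 33.5% at 2200. No other known modified position lies within 3 of these 3 sites.

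Around Am2280 and Am2281, which share a guide, mismatches were highest just before the methylated pair. The unmethylated A at 2279 was miscalled in 65.5% of reads, more than either methylated A. This A also follows a known cytidine methylated on its base, the m5C at 2278. What each neighbour contributes was not tested. Insertions then peaked at 50.5% at position 2282 and 46.5% at 2283. The nearby Gm2288 spread its insertions over 2287 to 2290, with 25.9%, 25.3%, 22.6% and 21.2%.

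Um2417 follows the pseudouridine Ψ2416, which was miscalled in 89.8% of reads. From Um2417 on, insertions were 48.5%, 54.6% at 2418, 60.7% at 2419 and 56.6% at 2420, and they were 10.1% at Um2421, where deletions were the leading error. In the other Um pair, mismatches were 28.9% at Um2724 and 41.7% at 2725. At Um2729 they were 9.71%, against 39.8% at 2730 and 46.7% at 2731, with insertions of 37.3% and 45.8% there.

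Gm2791, Gm2793, Gm2815 and Gm2619 each had higher deletion frequencies at a neighbour than at the site. Gm2791 itself had 1.54% deletions and 0.783% mismatches, whereas the A before it at 2790 had 41.0% mismatches and 46.0% deletions, and the A after it at 2792 had 45.9% deletions. After Gm2793, position 2794, which is also a G, had 63.5% deletions. Gm2815 had 3.63% mismatches, but 50.4% were found at 2816, and 68.9% deletions at 2818. Gm2619, the P loop site, had 0.562% deletions against 48.5% at 2621, the last G of the run that holds the site. Within such a run of G, at Gm2619 as at Gm2793, the values do not tell which G was missing.

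In the A loop, Um2921, Gm2922 and Ψ2923 are adjacent. Mismatches were 77.3%, 24.3% and 45.3% at these positions, and deletions were 17.3%, 42.8% and 37.9%, with 68.5% at the unmodified U of 2924. As 2923 and 2924 form a run of U, the values do not tell which of them was missing. The same holds for Um2921 and the U before it. Insertions were 21.0% and 20.3% at the methylated pair and 4.72% at Ψ2923. Am2946 and the G after it at 2947 shared 55.3% and 56.4% insertions, while Cm2948 had 16.9% and the U after it at 2949 had 34.7% mismatches.

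At Am2220, in contrast, mismatches were on the methylated A, with at most 7.59% at any neighbour. Beside Cm2337 the highest mismatch frequency was that of Ψ2340, at 65.5%, and the nearer neighbours had at most 7.87% mismatches and 7.03% insertions. Um2347 lay in a stretch of deletions, with 34.2% at 2344, 14.6% at 2345, 13.9% at 2346, 22.2% at the site and 28.7% at Ψ2349.

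**Figure D2:**
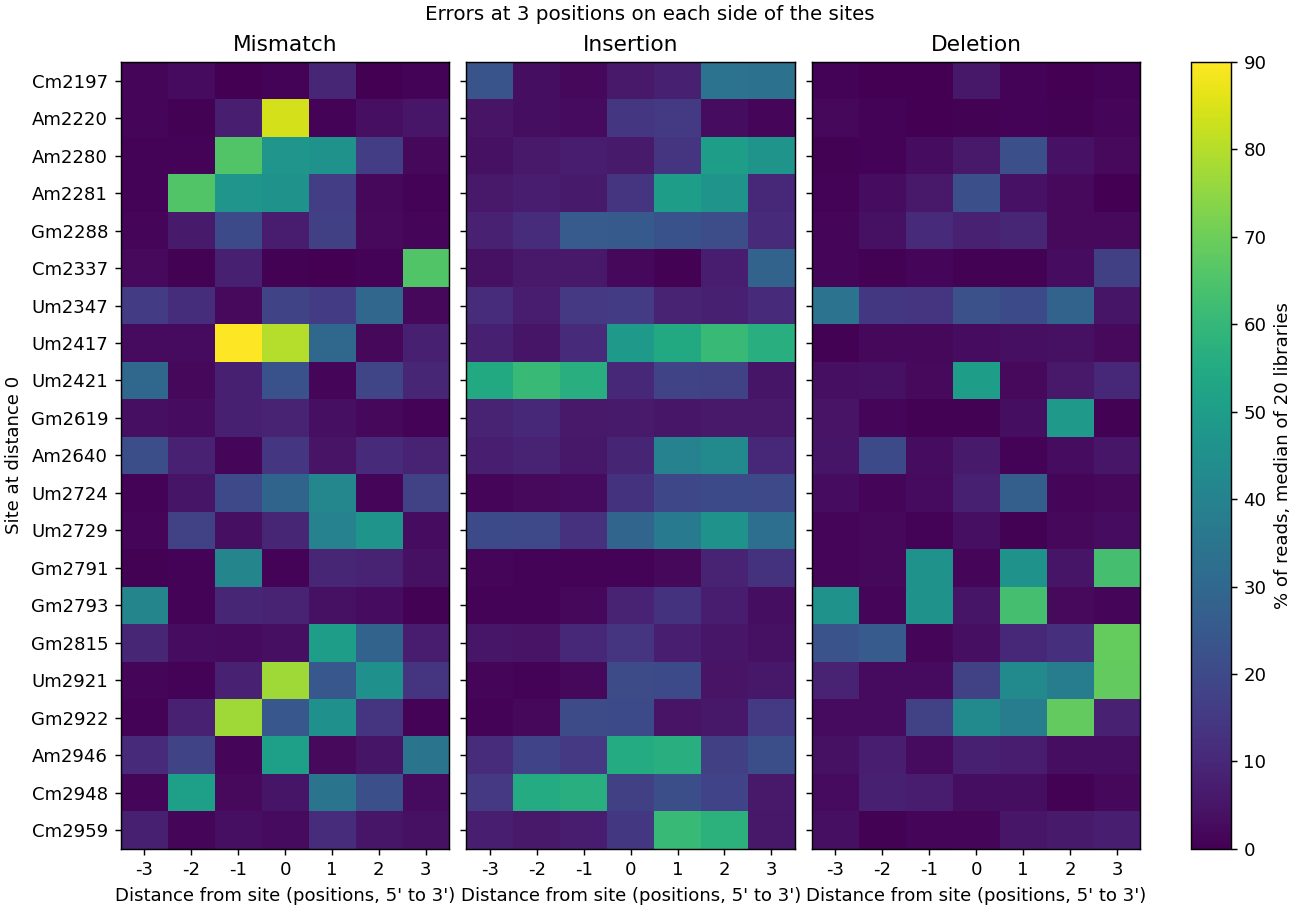
Median mismatch, insertion and deletion frequency (% of reads, 20 libraries) at the 21 sites and 3 positions on each side, from 5′ to 3′, with 1 row per site. Insertions are brightest 1 to 3 positions after many sites, and the mismatch of Am2220 stays in the middle column, at 84.3%.

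The current levels at the sites were mostly lower than those of the same sequence elsewhere. A level is the mean picoampere (pA) value of a 5-mer, the 5 bases that set the current together. Each 5-mer over a site was compared, within the same library, with the median of the same 5-mer at unmodified places of 25S. A comparison was possible for 66 5-mers over the 21 sites in all 8 strain libraries, 10 of which cover 2 sites. The level was lower at the site in 56 of these, 84.8%, and lower in all 8 libraries in 46. It was higher in all 8 libraries in 2. The median difference was -3.28 pA. By library, 54 to 58 of the 66 were lower, against 49.0 to 50.4% of unmodified 5-mers, each set against its own other copies. Comparing copies with each other keeps that share near even. The share of unmodified 5-mers lower in all 8 libraries was not computed.

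Of the 66, 49 hold no other known site, and 40 of these, 81.6%, were lower, with a median of -2.50 pA. One library stood apart: WT replicate 2 had a 95th percentile of absolute differences of 7.63 pA at unmodified 5-mers, each set against its own other copies, and the other 7 had 4.73 to 5.71 pA. Without it, 54 of the 66 were lower and the median was -3.06 pA. The number of reads behind a level is unknown, and 2 to 8 copies of the 5-mer served for comparison at the sites named below.

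The 5-mer at 2219 to 2223 over Am2220 had 94.1 pA against 123.3 pA elsewhere, a difference of -29.2 ± 4.00 pA (SD, n = 8 libraries, from -33.0 to -21.8 pA). The 5-mer at 2727 to 2731 over Um2729 differed by -22.9 ± 5.01 pA (n = 8, from -34.1 to -19.2 pA). The 5-mer at 2413 to 2417, which ends with Um2417 and also holds Ψ2416, differed by -12.5 ± 2.16 pA (n = 8). These 3 were lower in every library by more than the 95th percentile of any library. For each site the 5-mer with the largest mean difference is given, chosen by its size, so that these values carry no test.

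Differences of -10.4 ± 6.07 pA at Um2921, -9.83 ± 3.34 pA at Gm2815 and -8.65 ± 1.81 pA at Gm2922 followed. The 5-mer given for Gm2922, at 2919 to 2923, also holds Um2921 and Ψ2923. Am2946 and Cm2948 share the 5-mer at 2945 to 2949, with -8.57 ± 0.831 pA. Gm2791 and Gm2793 share the one at 2791 to 2795, with -8.29 ± 4.66 pA. Without WT replicate 2 the value at Um2921 was -8.26 pA and that at Gm2791 and Gm2793 was -7.07 pA. These 10 of 21 sites, with 8 different 5-mers, had a mean difference beyond 7.63 pA, all of them lower. Of the 66 5-mers 12, or 18.2%, lay beyond it, against 1.09% of 2024 unmodified 5-mers. Taken by the largest 5-mer over a position, as for the sites, 4.00% of 2748 unmodified positions did.

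The remaining sites differed less. Am2640 had -6.16 pA, the shared 5-mer of Am2280 and Am2281 -5.93 pA, Gm2619 -5.57 pA, Cm2197 -4.31 pA, Um2421 -4.11 pA and Cm2959 -4.03 pA. That shared 5-mer, at 2278 to 2282, also holds the m5C at 2278. Um2724 had -3.31 pA, Um2347 -2.27 pA, Cm2337 -1.53 pA and Gm2288 1.01 pA. Am2220, Um2729 and Um2417, with the largest differences, were also among the sites with the most mismatches or insertions, whereas Um2421, with the most deletions, was not among the 10. The comparison of Um2347 and that of Cm2337 rest on 1 5-mer each.

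**Figure D3:**
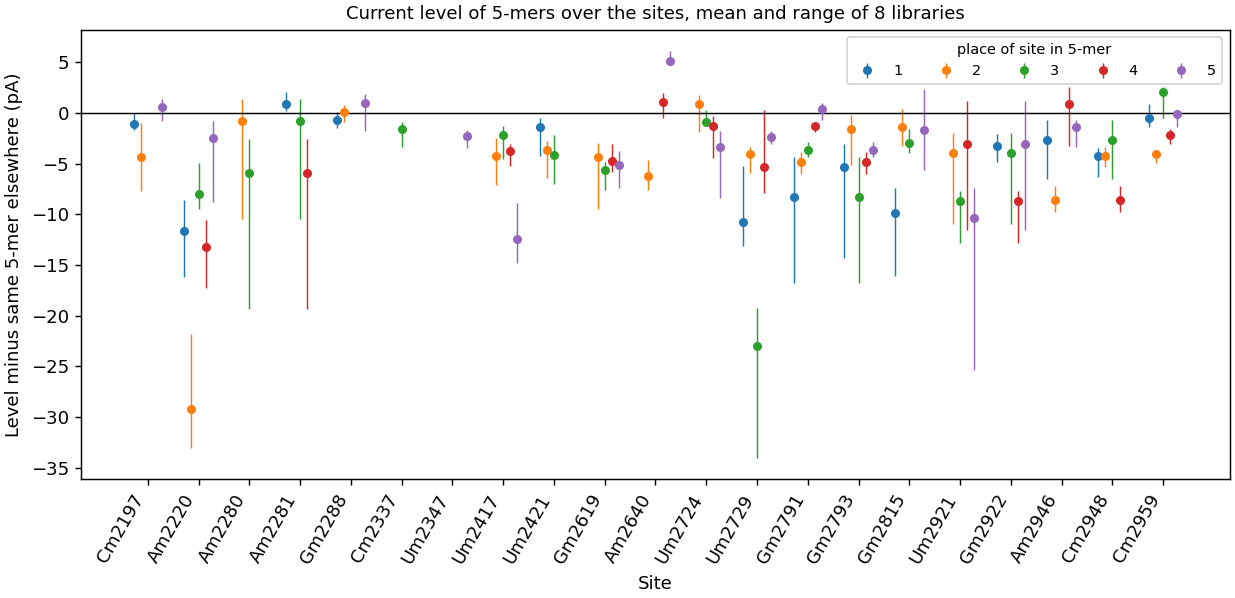
Difference in current level (pA) between each 5-mer over a site and the median of the same 5-mer at unmodified places of 25S. Points are means of the 8 strain libraries, lines run from the lowest to the highest library, and colours give the place of the site in the 5-mer, so that a 5-mer over 2 sites is drawn at both. Am2220 reaches -29.2 pA and Um2729 -22.9 pA, and most other points lie below 0.

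Deleting snR3, snR34 or snR36 left the 21 sites within a few percentage points of WT. With 1 library per strain there is no replicate check and no test. None of the 21 sites differed by 10 percentage points or more in mismatches, insertions or deletions in any of the 3 strains. Among all positions, 0.146% did so for mismatches in the snR3 deletion, 0.11% in the snR34 deletion and 0.0549% in the snR36 deletion. For insertions the shares were 0.0915%, 0.0183% and 0%, and for deletions 0.0732%, 0.0733% and 0.0915%.

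The largest mismatch difference was 2.70 points, at Um2921 in the snR34 deletion. For insertions it was 3.96 points, at Am2946 in the snR36 deletion, where all 3 deletion strains lay above WT. For deletions it was -1.83 points, at Um2347 in the snR36 deletion. The median absolute difference for mismatches was 0.330, 0.382 and 0.587 points over the sites in the snR3, snR34 and snR36 deletions, and 0.149, 0.187 and 0.180 over all positions. For insertions it was 0.400, 0.318 and 0.395 points, against 0.200, 0.255 and 0.235, and for deletions 0.136, 0.413 and 0.301, against 0.156, 0.191 and 0.207. Deletions were below WT at 15, 14 and 19 of 21 sites and at 61.8%, 52.4% and 66.2% of all positions.

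Among the gradient fractions no site passed the test, though insertions at some did in other settings. Fractions from the top of a gradient hold free RNA and subunits and those further down translating ribosomes, as general background. A quasi-binomial model of reads, with limma-moderated dispersion and Benjamini-Hochberg adjustment over 5305 positions, called 0 of 21 sites for any feature, both over all 4 fractions and for F4 against F1. With the replicate number as a block and each library shifted to a common median level, it called insertions at Um2417, Um2921, Gm2922 and Am2946 for F4 against F1, with adjusted p of 0.0108 to 0.0441, and at Am2946 over all fractions. The block alone called none. In the main fits the share of all positions called was 0% in each of these comparisons, equal to the share at the sites. With the block and shift together, positions other than the sites were called as well, with the counts given in the closing section. Over the fraction and peroxide comparisons together, 13 of 504 tests at sites, or 2.58%, had an unadjusted p under 0.05. Taken by single comparison, 0.17 to 15.7% of all positions did, and their pooled share was not computed. The most at sites were 4 of 21, for insertions and for deletions over all 4 fractions. There, 15.7% and 13.4% of all positions did so.

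Insertions at Am2946 had the smallest unadjusted p among the sites. They averaged 52.9 ± 3.48% (F1), 58.0 ± 9.12% (F2), 59.1 ± 2.89% (F3) and 61.7 ± 0.839% (F4; SD, n = 2 each). The quasi-binomial model moderated with limma gave p = 0.00383 and adjusted p = 0.227. It weights each library by its reads, so these p-values do not test the unweighted means above. F2 replicate 1, with 13317 or more reads at each site, outweighs F2 replicate 2, with 2733 at most. Both F4 libraries lay above both F1 libraries, whereas the F2 libraries spanned nearly the whole range. The share of all positions where F4 and F1 separate was not computed, so this cannot be read as particular to the site. Leaving out F2 replicate 2 changed the calls: insertions at Am2946 and some other sites were then called over the fractions, as were many other positions. That fit leaves F2 with 1 library and no spread within the group, so its p-values are not given.

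The largest gaps between fractions otherwise involved F1, whose libraries are shallow. Deletions at Um2421 averaged 44.3 ± 3.42% (F1), 49.7 ± 0.0561% (F2), 50.8 ± 1.66% (F3) and 54.0 ± 4.61% (F4; n = 2 each), with an adjusted p of 0.608 over the fractions in the limma-moderated model. Mismatches at Um2347 averaged 24.4 ± 8.60% (F1), 18.3 ± 0.00236% (F2), 15.5 ± 1.93% (F3) and 18.7 ± 0.229% (F4; n = 2 each; adjusted p = 0.475, limma-moderated model). Um2347 had the widest range of mismatches over the libraries, and the F1 mean rested on replicate 1, at 30.4%, with 18.3% in replicate 2. The other fractions gave 18.3% and 18.3% (F2), 16.8% and 14.1% (F3) and 18.9% and 18.5% (F4). It was miscalled in 16.4% of reads in WT, 17.2% in the snR3, 17.6% in the snR34 and 17.3% in the snR36 deletion. Input of untreated cells gave 20.2% and 18.3%, input of treated cells 17.6% and 18.1%, and the pooled fractions 18.7% and 18.5% without and 19.8% and 18.5% with peroxide. F1 replicate 1 thus lay outside the 14.1 to 20.2% of all other libraries.

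Each remaining comparison of fractions had a site of smallest p that did not pass. Mismatches at Am2640 averaged 16.3 ± 2.52% (F1), 14.6 ± 2.05% (F2), 14.8 ± 2.44% (F3) and 12.7 ± 0.0910% (F4; limma-moderated model, adjusted p = 0.335). Deletions at Gm2793 averaged 9.36 ± 2.76%, 5.60 ± 1.31%, 6.07 ± 0.785% and 6.14 ± 3.10% (limma-moderated model, adjusted p = 0.363). Leaving out F2 replicate 2, which left F2 with 1 library, changed the calls of deletions too, as described in the closing section.
For F4 against F1, deletions at Cm2337 averaged 0.595 ± 0.328% and 2.59 ± 0.946% (limma-moderated model, adjusted p = 0.328), and F2 and F3 had 0.562% and 0.619%. At Gm2791, insertions averaged 1.44 ± 0.913% in F4 and 2.48 ± 1.41% in F1, and mismatches 1.39 ± 0.986% and 2.54 ± 2.55% (limma-moderated model, adjusted p = 0.588 and 0.415). The F1 values of these 2 low sites stand on a few reads per library. Base quality at Am2281 averaged 7.47 ± 0.786 in F1 and 5.90 ± 1.21 in F4, and at Cm2197 19.3 ± 1.93 in F1 and 20.9 ± 0.280 in F4 (limma, adjusted p = 1.00 for both).

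**Figure D4:**
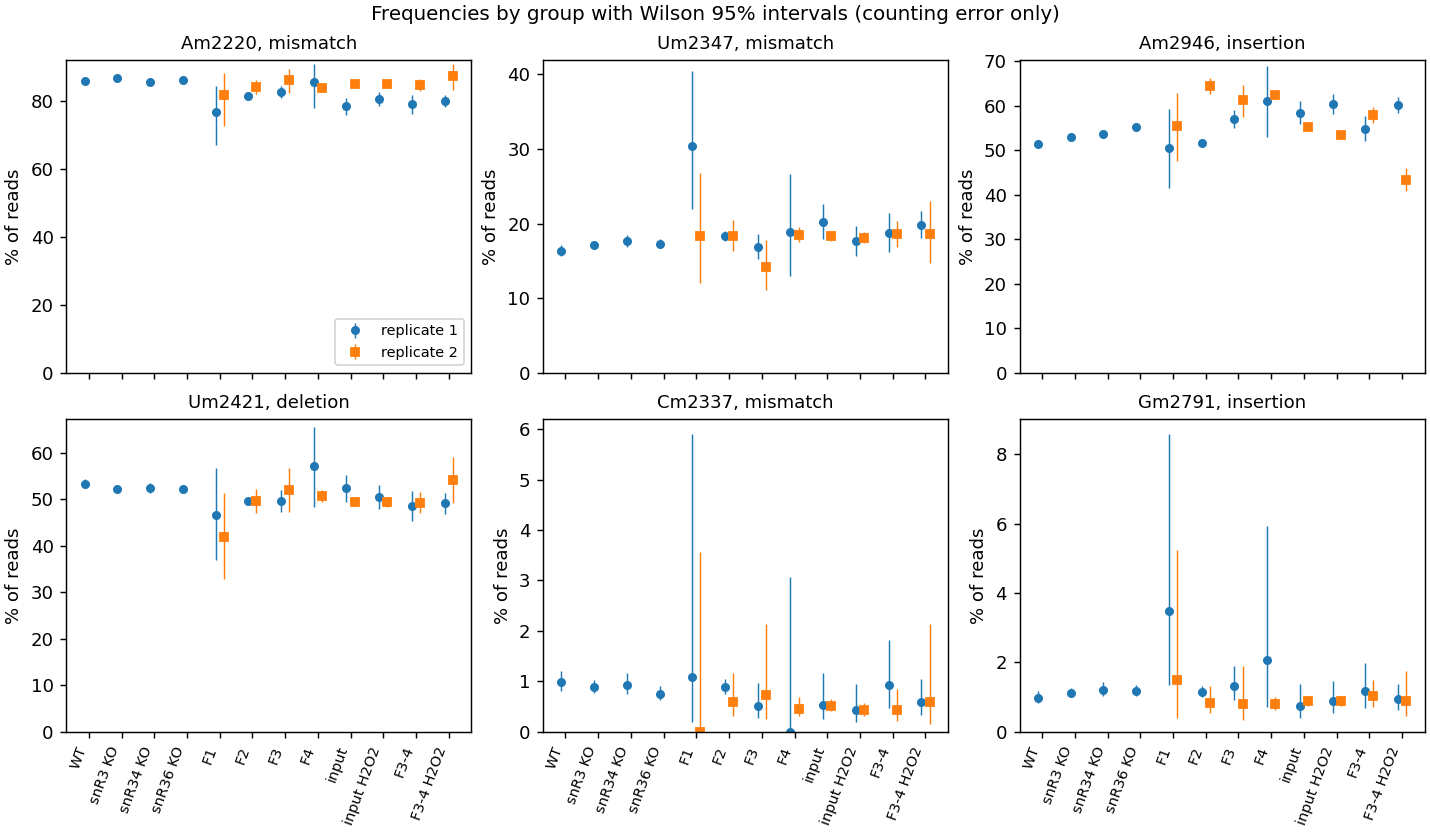
Frequency (% of reads) of mismatches at Am2220, Um2347 and Cm2337, insertions at Am2946 and Gm2791 and deletions at Um2421 in every library, by group and replicate. Lines are Wilson 95% intervals, which cover counting error only, and are widest in F1 and F4 replicate 1. Insertions at Am2946 run from 43.4% to 64.5%, with replicates of F2 and of treated fractions 3 and 4 (F3-4 H2O2) far apart.

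Treated and untreated cells differed by little at the sites in total RNA. The median absolute difference between treated and untreated input over the 21 sites was 0.338 points for mismatches, 0.404 for insertions and 0.386 for deletions, against 0.259, 0.365 and 0.247 over all 5425 positions tested. The limma-moderated models called 0 of 21 sites and 0% of all positions for each feature. The largest differences were -1.71 points for mismatches at Um2417, -1.25 for insertions at Am2220 and -1.39 for deletions at Um2921. Insertions were higher in treated input at 17 of 21 sites, with a median difference of 0.171 points, and at 60.3% of all positions, with a median of 0.129. In pooled fractions 3 and 4 they were higher at 8 sites and lower at 13, with a median of -0.54 points, and higher at 52.8% of all positions.

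In pooled fractions 3 and 4 the differences between treated and untreated cells were wider. The median absolute difference over the sites was 0.548 points for mismatches, 1.02 for insertions and 0.695 for deletions, against 0.535, 0.669 and 0.556 over all positions. Again 0 of 21 sites and 0% of all positions were called. The largest were -4.58 points for insertions at Am2946, -2.66 for mismatches at Um2724 and 2.68 for deletions at Um2421. At Am2946 the treated replicates lay on either side of the untreated ones, at 60.1% and 43.4% against 54.8% and 57.8%.

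Untreated fractions 3 and 4 were also close to untreated input, where the RNA preparation differs as well. The median absolute difference over the sites was 0.462 points for mismatches, 0.578 for insertions and 0.296 for deletions. The largest were 2.13 points for mismatches at Um2724, 1.92 for insertions at Gm2815 and -1.96 for deletions at Um2421. The models called 0 of 21 sites and 0% of all positions, both here and for the difference between the peroxide effects in fractions and in input.

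Gm2791 had the smallest p for mismatches in input, in the fraction comparison and in the difference of effects. Its mismatches averaged 0.461 ± 0.120% in untreated input, 0.925 ± 0.196% in treated input, 1.13 ± 0.424% in untreated fractions 3 and 4 and 0.767 ± 0.0171% in treated ones (n = 2 each). The unadjusted p was 0.0447 for peroxide in input and 0.0389 for fractions against input, and the adjusted p was 0.999 and 1.00 (limma-moderated model). Mismatches at Cm2948 averaged 5.52 ± 0.139% in untreated and 4.34 ± 0.569% in treated fractions 3 and 4 (limma-moderated model, adjusted p = 1.00). With 2 libraries against 2, the groups at Cm2948 did not overlap, but the share of all positions without overlap was not computed. By adjusted p, 0% of positions were called in this comparison.

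For insertions, the smallest p belonged to Gm2288, Am2280 and Gm2922. Gm2288 averaged 27.4 ± 2.41% in untreated input, 27.9 ± 3.50% in treated input, 26.4 ± 1.56% in untreated fractions 3 and 4 and 27.5 ± 6.74% in treated ones. Am2280 averaged 5.92 ± 0.355% in untreated and 6.49 ± 0.00775% in treated input, and Gm2922 20.6 ± 1.51% in untreated input and 20.0 ± 1.13% in untreated fractions 3 and 4. All adjusted p-values of the limma-moderated model here were between 0.999 and 1.00.

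For deletions it belonged to Am2280, Um2347, Um2417 and Gm2793. Am2280 averaged 5.72 ± 0.0595% in untreated and 6.61 ± 0.680% in treated input. Um2347 averaged 22.9 ± 0.920% in untreated and 22.2 ± 2.31% in treated fractions 3 and 4, and Gm2793 5.26 ± 0.950% in untreated input and 5.73 ± 1.15% in untreated fractions 3 and 4. Um2417 averaged 2.69 ± 0.221%, 3.00 ± 0.0610%, 3.29 ± 0.613% and 2.48 ± 0.269% in the 4 groups in that order, from untreated input to treated fractions. None passed, with adjusted p-values of 0.999 to 1.00 (limma-moderated model). Base quality at Am2220 averaged 12.6 ± 0.0269, 12.4 ± 0.329, 12.1 ± 0.392 and 12.4 ± 0.101 in the same groups, and at Cm2337 9.28 ± 0.118 in untreated and 9.66 ± 0.381 in treated fractions (limma, adjusted p = 0.997 to 1.00).

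Replicate number and experiment went with differences at a few sites. The 15 deep libraries form 3 sets: 6 of replicate 1 and 5 of replicate 2 of the fraction and peroxide experiments, and 4 strain libraries. The 3 sets did not overlap at 1 of 21 sites for mismatches, 2 for insertions, 1 for deletions and 1 for base quality, and at the others at least some of them did. The share over all positions was not computed, so these counts cannot be read as particular to the sites. The separated error frequencies were chosen for that and are a description. Mismatches at Am2220 were 78.4 to 82.5% in replicate 1, 83.7 to 85.0% in replicate 2 and 85.4 to 86.7% in the strain libraries. Its insertions ran the other way, at 16.4 to 20.1%, 13.6 to 14.9% and 11.8 to 12.7%. Insertions at Gm2288 were 27.5 to 32.2%, 23.5 to 25.7% and 22.5 to 23.3%, and deletions at Cm2197 were 4.19 to 4.93%, 5.29 to 6.41% and 7.85 to 9.33%. The sites of widest range overlapped between sets. Mismatches at Am2281 were 40.6 to 48.1%, 45.7 to 48.1% and 49.3 to 50.7%, and insertions at Am2946 were 51.6 to 60.4%, 53.5 to 64.5% and 51.3 to 55.3%. What set these libraries apart was not tested.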

How the data were processed

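Native RNA was sequenced with nanopores. The deposited error tables, per the file headers, give a read count (coverage), a mean base quality score and mismatch, insertion and deletion values, each a fraction of the coverage, for every rRNA position in 20 libraries. Fractions times coverage gave whole reads at 100% of values (tolerance 0.001). The deposited current tables of 8 libraries hold an event level per 5-mer, a signal in pA per the file headers. The base caller, aligner and genome build are not stated in the labels or headers, so positions are those of the mature 25S.

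From these, medians, Wilson 95% intervals and current differences were computed (Python 3.11.15, pandas 2.3.3, scipy 1.17.1). Reads with and without an error (0.5 added to each) entered a quasi-binomial model for each position, its dispersion moderated with limma 3.58.1 (R 4.3.3) and floored at 1. Libraries thus counted by their reads, whereas the means ± SD of error frequencies printed beside p-values weight libraries equally. Base quality was fitted with limma. Positions needed 20 reads in all 8 libraries of a fit, and Benjamini-Hochberg adjusted p was judged at 0.05. The code was tested on simulated data. Groups came from the sample labels. All sites were named, with values by group for those of highest, lowest or most variable frequency or of smallest p. The sites and lists were chosen with earlier results of these data known. The known modified sites and guides come from general knowledge and were not checked against a database.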

Additional observations from a re-analysis of the deposited data

How the results depend on the processing

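Of the 360 counts of called sites under alternatives, 356 were 0, as reported, and 4 were not. With the replicate number as a block together with a shift of each library to a common median level, insertions were called at 4 sites for F4 against F1 (Um2417, Um2921, Gm2922 and Am2946, among 29 positions) and at 1 site over all fractions (Am2946, among 31). The replicate block alone called 0 sites in every comparison. The labels do not say what the numbers share, and deviations of same-numbered libraries correlated at 0.0607 to 0.590 between groups. Leaving out each library in turn left a group with 1 library, so those calls are not read as results. In these fits, calls at sites arose only without F2 replicate 2, for insertions and for deletions over all fractions. Many other positions were called there too. Without that library, mismatches over the fractions were called at other positions only. Without replicate 1 of the peroxide-treated fractions, the same held for base quality for peroxide in fractions 3 and 4. The cause was not tested. Neither coverage of 50, limma on empirical logits, an unfloored dispersion nor size limits of 5 or 20 points for the strains brought a site past its threshold. All 268 recomputed values of medians, each of 1 feature under 1 alternative, moved by less than the spread over libraries. So did all 62 recomputed current differences, but most of these could not have done otherwise. A mean without WT replicate 2, or over replicate 1 only, cannot leave the full mean by more than that spread. Only the comparison with 5-mers at least 11 positions from known sites could have. The removal of WT replicate 2 was chosen after seeing the data. With 2 libraries a group and the low coverage of both F1 libraries and F4 replicate 1, 0 calls do not show that a site did not change.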
